A study of Mus musculus with 8 samples.

Results

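The 39 genes described here encode the machinery that brings secretory proteins into the endoplasmic reticulum (ER), folds them, and clears or exports them. They were taken as a fixed list of symbols, older symbols of the same gene included, out of 21597 gene symbols on the array, and each was read on its brightest probe in both dyes. Pancreas RNA was measured in 8 female NOD mice, each hybridized in red (Cy5) to its own two-color array together with 1 pool of pancreas RNA from 8 female NOD.B10 mice in green (Cy3). All mice were 12 weeks old, and the labels name no treatment. NOD mice develop autoimmune diabetes spontaneously, and NOD.B10 mice are their congenic, non-diabetes-prone controls with another major histocompatibility haplotype. The study used them to ask which pancreatic genes change before diabetes. All values are from whole pancreas, so fewer cells of a type and less RNA per cell cannot be told apart. The pool has no replicates, and the dyes were not exchanged, so what a strain changes at a gene and what a dye changes at its probe cannot be told apart.

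Proteins bound for secretion enter the ER through the Sec61 channel, receive sugar chains from the oligosaccharyltransferase, and fold with the help of chaperones such as BiP (*Hspa5*), GRP94 (*Hsp90b1*), calnexin and calreticulin. Protein disulfide isomerases form their disulfide bonds, misfolded chains are sent back to the cytosol for degradation (ER-associated degradation, ERAD), and folded cargo leaves in COPII-coated vesicles. The sensors *Ern1*, *Atf6* and *Eif2ak3* and the transcription factor *Xbp1* run the unfolded protein response, which raises the transcription of many of these genes when folding falls behind. Acinar cells, which make the digestive enzymes and form most of the pancreas, depend heavily on this machinery.

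The 8 arrays came on 2 slides of 4, as the slide barcode in the file headers shows, the first holding replicates 1 to 4 and the second replicates 5 to 8. Each slide carried different NOD mice and the same pool, so a slide effect and a difference between the 2 sets of mice cannot be told apart. The share of spots with red signal well above background was 30.1% to 35.3% on slide 1 and 21.6% to 33.9% on slide 2, where replicate 6 had the 33.9%. The signal filter passed 18396 genes, all 39 members among them. Red signal was well above background on all 8 arrays for 38 of them, the exception being *Ern1*, and 0 members had a saturated spot. Of 16 markers of acinar cells, the labelled tissue's main cell type, 16 gave a red signal well above background on all 8 arrays.

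Averaged over the 8 mice, these genes had no common direction between NOD pancreas and the NOD.B10 pool, and with the deposited log ratio every change that passed the test was under 2-fold. The median over members of the mean log2 ratio (red over green) was -0.0035, against -0.078 over all genes tested, and another scaling of the arrays moved the latter by 0.10. By limma with Benjamini-Hochberg adjustment, 0 of 39 members passed at least 2-fold with an adjusted p under 0.01, where 0.391% of all genes were called higher and 1.3% lower. At an unadjusted p under 0.05, 12 members passed, beside 36.0% of all genes, 0 of the 12 with a 2-fold mean, and the plain statistic also called 0. At an adjusted p under 0.05 with no minimum fold, 4 members (10.3%) were higher and 5 (12.8%) lower, beside 7.01% and 14.4% of all genes. Each slide gave a different picture, as the plot of each member in each mouse shows.

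**Figure D1:**
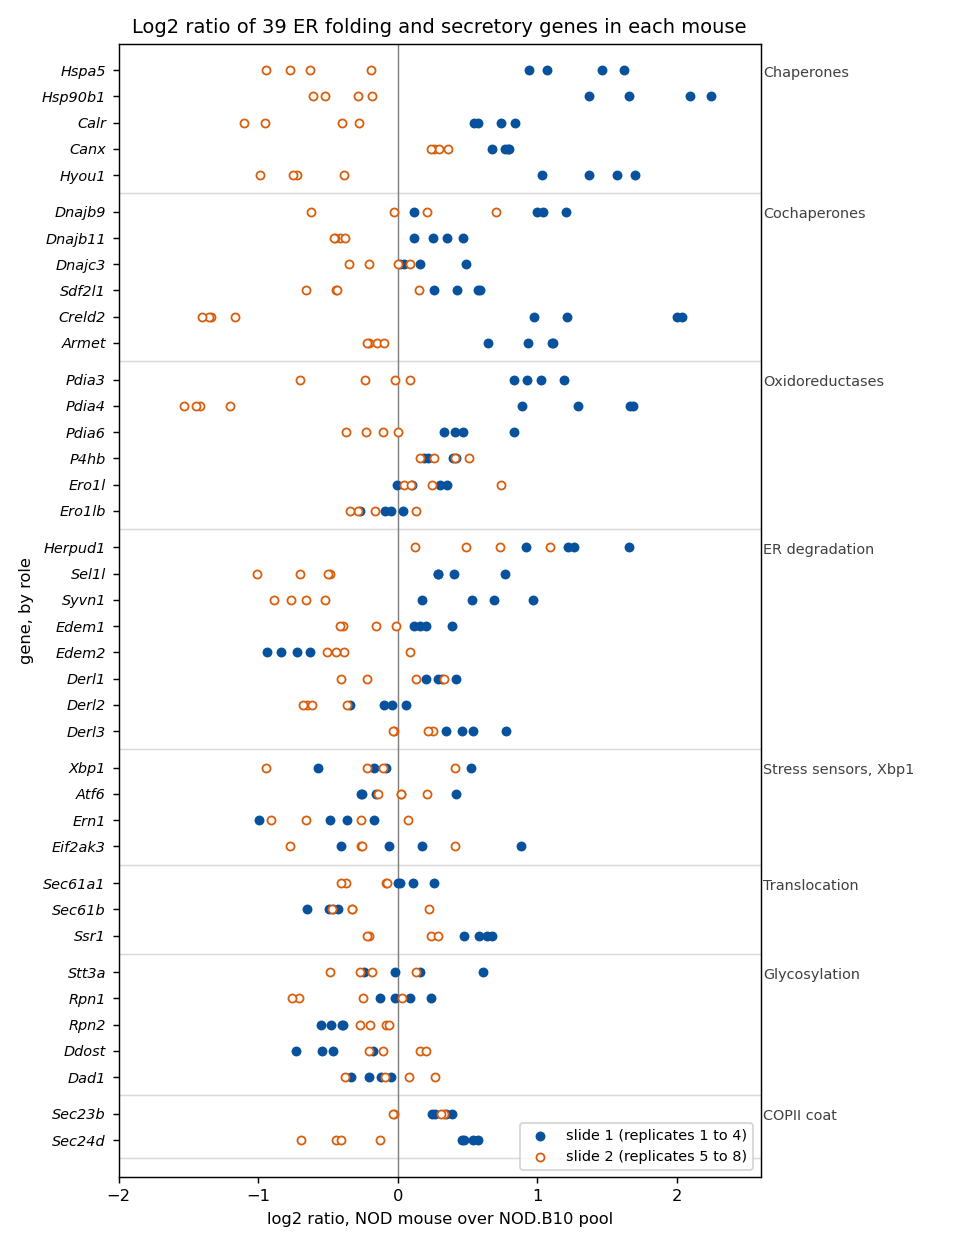
Log2 ratio of NOD mouse over NOD.B10 pool (x axis) for the 39 members (y axis, grouped by role), with 1 point per mouse, filled for slide 1 and open for slide 2. For 20 members every slide 2 mouse lies under every slide 1 mouse, and for some of these, *Creld2* and *Pdia4* among them, the slides lie on opposite sides of 0.

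Over all 8 mice, in the fit without a slide term, *Herpud1* was the only member past the threshold with a mean change of at least 1.5-fold. *Herpud1*, a membrane protein of the degradation machinery induced by ER stress, had the largest change. Its log2 ratio was 0.92, 1.26, 1.22 and 1.66 in replicates 1 to 4 and 0.49, 1.09, 0.12 and 0.73 in replicates 5 to 8, so that 8 of 8 mice were above the pool and the slides overlapped. The mean was 0.94 ± 0.48 (SD, n = 8) and the adjusted p by limma 0.00811. Calnexin (*Canx*), a lectin chaperone, was higher by 0.52 ± 0.25 (adjusted p = 0.00688), above 0 in 8 of 8 mice. *P4hb*, the founding protein disulfide isomerase, was higher by 0.32 ± 0.13 (adjusted p = 0.00394), also in 8 of 8, and its slide means were 0.31 ± 0.12 and 0.34 ± 0.15. The COPII coat gene *Sec23b* was higher by 0.23 ± 0.17 (adjusted p = 0.0302). With slide as covariate, a fit that takes the spread between slides out of the error, 6 more members passed above the pool. *Hsp90b1* had a mean of 0.72 (adjusted p = 0.00511, against 0.27 without the slide term), *Armet* 0.39 (0.00432) and *Pdia3* 0.39 (0.0241). *Hyou1* had 0.35 (0.0321), *Derl3* 0.32 (0.0105) and *Ssr1* 0.31 (0.0211). The share of all genes passing in this fit was not counted. On slide 2 the means of *Hsp90b1*, *Armet*, *Pdia3* and *Hyou1* were below the pool (-0.40, -0.17, -0.22 and -0.71). With median-centered signals *Derl3* turned to -0.21 and *Ssr1* to -0.13, and with normexp background correction and loess *Ssr1* turned to -0.087. Of the 4 tested plasma cell markers, a cell type that also expresses many ER chaperones, 3 were higher over the 8 mice as well, *Igj* by 1.57 ± 1.14 (adjusted p = 0.0278), *Mzb1* by 0.44 ± 0.12 (0.00104) and *Igh-6* by 0.95 ± 0.82 (0.0498), and their part in the members' changes was not tested.

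Of the 5 lower members, *Edem2*, which trims mannose from chains bound for degradation, fell most. Its log2 ratio was -0.55 ± 0.32 (SD, n = 8; adjusted p = 0.0132 by limma) and below 0 in 7 of 8 mice. *Derl2*, a channel component of ERAD, had -0.34 ± 0.29 (adjusted p = 0.0494). The oligosaccharyltransferase subunit *Rpn2* had -0.30 ± 0.18 (adjusted p = 0.0151), below 0 in 8 of 8. The stress sensor *Ern1* had -0.47 ± 0.37 (adjusted p = 0.0355) at a red signal well above background on 2 arrays only. *Sec61b*, the channel's beta subunit, was lower at -0.37 ± 0.26 (adjusted p = 0.0266), but this direction turned to 0.45 with normexp background correction and loess. Of the 9, *Herpud1*, *Canx*, *Edem2* and *Derl2* passed in the same direction under both other scalings. *Derl2* lost its call without any 1 mouse other than replicate 2 (adjusted p up to 0.104), *Sec23b* without replicate 1, 2, 3, 4, 6 or 8 (up to 0.0721), and *Ern1* and *Sec61b* without any 1 of replicates 1 to 7 (up to 0.0774 and 0.065). Without any 1 of replicates 1, 3, 4, 5, 6 or 7 the lower count was 2, without replicate 2 it was 3, and without replicate 8 it was 4. Further members passed under the other scalings. Under both, *Hspa5* was higher, by 0.71 with median-centered signals and 1.22 with normexp and loess (adjusted p = 0.024 and 0.0149), as were *Armet*, by 0.79 and 0.98 (0.00664 and 0.00991), and *Pdia6*, by 0.51 and 0.88 (0.0311 and 0.00425). *Ddost* was lower under both, at -0.72 and -0.62 (0.00508 and 0.0063). With median-centered signals alone *Hyou1* was higher by 0.81 (0.024) and *Eif2ak3* lower at -0.76 (0.0323).

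The clearest pattern was between the slides. In NOD mice on slide 1 the chaperones and many of their partners were above the pool, and 9 of these were below it on slide 2. With slide 2 tested against slide 1 (limma, adjusted p under 0.05), 14 of 39 members (35.9%) were lower on slide 2 and 0 were higher, where 1.86% of all genes were lower and 2.01% higher. Among the 6191 genes with red signal well above background on all 8 arrays, 3.68% were lower on slide 2. Every slide 2 mouse lay under every slide 1 mouse for 20 members (51.3%), against 6.97% of all genes. The opposite held for 2 members, *Edem2* and *Rpn2* (5.13%), against 7.46%. For 4 mice against 4 the smallest two-sided p that an exact permutation test allows is 0.0286. These 22 members have it because their slides do not overlap, so it is no further result.

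Tested within each slide against 0, 19 members were above the pool on slide 1 and 4 below it, beside 6.58% and 12.0% of all genes. On slide 2, 2 members were above the pool and 10 below it, beside 5.87% and 9.89% of all genes. All 14 members that differed by slide passed above 0 on slide 1, and 9 of them passed below 0 on slide 2. The median over members of the mean log2 ratio was 0.31 on slide 1 and -0.22 on slide 2, while that of all genes tested was -0.069 and -0.048. By mouse, the median over members was 0.31, 0.42, 0.39 and 0.29 in replicates 1 to 4 and -0.27, -0.14, -0.18 and -0.34 in replicates 5 to 8. The 4 slide 1 mice were thus all above 0 and the 4 slide 2 mice all below it. Replicate 6, whose red detection lay in the range of slide 1, was the slide 2 mouse nearest to 0. The part of red detection in this difference was not tested.

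**Figure D2:**
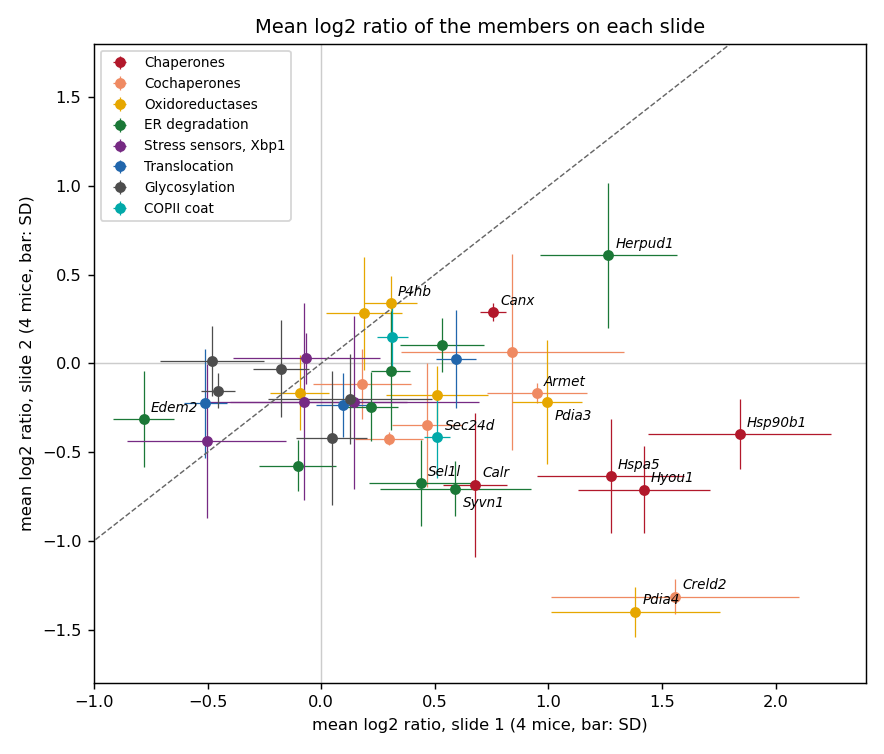
Mean log2 ratio of each member on slide 1 (x axis) and slide 2 (y axis), with bars of 1 SD over 4 mice, colored by role, and a dashed line where both slides would be equal. Of the chaperones all but *Canx* lie on opposite sides of 0 on the 2 axes, as does *Creld2* at 1.56 and -1.31, while *P4hb* lies close to the line.

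Promoters of some of these genes are known to carry the ER stress element, which ATF6 and XBP1 bind together with NF-Y. RefSeq promoter sequences (GRCm38.p6, the C57BL/6J reference, 250 bases before to 50 after the start) were at hand for 34 of the 39 members, Hyou1, Armet, Derl1, Atf6 and Sec61a1 being without an entry. The element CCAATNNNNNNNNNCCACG, searched on both strands, was in 10 of the 34 (*Hspa5*, *Hsp90b1*, *Calr*, *Canx*, *Dnajc3*, *Creld2*, *Pdia6*, *Ero1lb*, *Syvn1* and *Derl3*), and in 0.119% of all 32851 promoters. ER stress element II, ATTGGNCCACG, was in *Herpud1* and *Dnajb11* and in 0.0365% of all promoters. Of the 14 members lower on slide 2, 12 had a promoter sequence, and 8 of these held one of the elements. *Pdia3*, *Pdia4*, *Sel1l* and *Sec24d* held neither in this window, while *Dnajc3*, *Ero1lb*, *Derl3* and *Herpud1* held one without passing the slide test. The windows below are shown so that the first of these elements can be compared between members that differed by slide and, in the last pair, members that did not pass that test. Each runs 5′ to 3′ on the gene's strand, at most 30 bases on each side of the element, and capitals mark the fixed letters of an element, which read CGTGG and ATTGG where it lies on the opposite strand.
Hspa5: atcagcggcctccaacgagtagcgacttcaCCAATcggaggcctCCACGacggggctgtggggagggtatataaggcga
Hsp90b1: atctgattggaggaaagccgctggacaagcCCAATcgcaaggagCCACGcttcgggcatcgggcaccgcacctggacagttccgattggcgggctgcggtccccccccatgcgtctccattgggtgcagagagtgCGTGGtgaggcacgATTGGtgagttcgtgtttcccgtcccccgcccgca
Calr: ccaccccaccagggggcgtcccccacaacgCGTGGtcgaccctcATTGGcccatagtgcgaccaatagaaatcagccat
Canx: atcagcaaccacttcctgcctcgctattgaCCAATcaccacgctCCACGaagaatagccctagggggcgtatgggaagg
Creld2: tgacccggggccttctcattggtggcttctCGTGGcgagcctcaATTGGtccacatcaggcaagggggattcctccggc
Pdia6: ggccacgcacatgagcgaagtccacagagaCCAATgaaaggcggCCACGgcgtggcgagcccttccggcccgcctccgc
Syvn1: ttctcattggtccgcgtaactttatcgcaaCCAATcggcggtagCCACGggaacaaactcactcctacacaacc
Dnajc3: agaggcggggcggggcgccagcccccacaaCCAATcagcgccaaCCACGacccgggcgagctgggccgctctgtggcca
Ero1lb: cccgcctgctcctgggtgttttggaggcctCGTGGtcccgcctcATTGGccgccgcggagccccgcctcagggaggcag

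The window of *Hspa5* is chr2:34771995-34772073 (+ strand), that of *Hsp90b1* chr10:86705503-86705686 (- strand), that of *Calr* chr8:84847045-84847123 (- strand) and that of *Canx* chr11:50325770-50325848 (- strand). Those of *Creld2*, *Pdia6* and *Syvn1* are chr15:88819490-88819568 (+ strand), chr12:17266461-17266539 (+ strand) and chr19:6046502-6046575 (+ strand), and the last pair lie at chr14:118937797-118937875 (+ strand) and chr13:12565652-12565730 (+ strand). *Hsp90b1* holds 2 elements, on opposite strands. The single elements of the other promoters shown begin between 44 (*Syvn1*) and 201 (*Ero1lb*) bases before the start. A match describes the letters and is no measure of binding.

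All 5 chaperones were lower on slide 2, although *Canx* was so with the deposited log ratio only. *Hsp90b1* (GRP94, the ER form of HSP90; probe at chr10:86120824-86120883, mm8) had log2 ratios of 2.09, 2.25, 1.65 and 1.37 on slide 1 and -0.60, -0.52, -0.18 and -0.29 on slide 2. The 4 slide 1 mice were thus 1.37 or more above the pool and the 4 slide 2 mice below it, a difference of -2.24 ± 0.21 (SE; limma adjusted p = 0.0102) or 4.73-fold. *Hyou1* (GRP170, the nucleotide exchange factor of BiP; chr9:44143279-44143338) had 1.57, 1.70, 1.37 and 1.03 on slide 1 and -0.98, -0.72, -0.39 and -0.75 on slide 2, with no overlap and a difference of -2.13 ± 0.18 (adjusted p = 0.00921). *Hspa5* (BiP, the main ER HSP70; chr2:34598119-34598178) had 1.46, 1.62, 1.07 and 0.94 and then -0.94, -0.63, -0.19 and -0.77. It fell from 1.27 ± 0.32 to -0.63 ± 0.32 (SD, n = 4 each), by -1.91 ± 0.22 (SE, adjusted p = 0.0132), again with no overlap, and the size shrank to -1.10 with median-centered signals and -1.02 with normexp and loess (adjusted p = 0.0808 and 0.135).

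Of the lectin chaperones, *Calr* (calreticulin; chr8:87732398-87732457) had log2 ratios of 0.55, 0.74, 0.84 and 0.57 on slide 1 and -0.95, -0.28, -0.40 and -1.10 on slide 2, which do not overlap. It differed by -1.36 ± 0.20 (SE; limma adjusted p = 0.0264), a 2.56-fold change, which lost its call without any 1 of replicates 1 to 5 (adjusted p up to 0.0825). *Canx* (chr11:50137968-50138027) stayed above the pool on both slides, with 0.79, 0.79, 0.67 and 0.77 and 0.26, 0.30, 0.24 and 0.36. Its slides differed by -0.47 ± 0.047 (adjusted p = 0.0111), and the direction flipped to 0.23 with median-centered signals and 0.23 with normexp and loess.

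Among the 6 cochaperones and small folding factors, the value was negative for all and 3 passed the slide test. *Creld2* (an ER stress-induced protein with disulfide isomerase-like motifs; chr15:88654333-88654392) had the largest difference of the 39, with log2 ratios of 2.04, 2.00, 0.98 and 1.21 on slide 1 and -1.34, -1.35, -1.40 and -1.17 on slide 2. At the mean, slide 1 mice were at 2.94 times the pool and slide 2 mice at 40.2% of it, a difference of -2.87 ± 0.26 (SE; limma adjusted p = 0.00921), 7.32-fold. *Armet* (MANF, a secreted factor that also binds BiP; chr9:106747048-106747107) had 1.12, 1.10, 0.65 and 0.93 on slide 1 and -0.20, -0.22, -0.15 and -0.10 on slide 2. Its slide 2 mice lay just under the pool and none overlapped slide 1, a difference of -1.12 ± 0.11 (adjusted p = 0.0105) that fell to -0.53 with median-centered signals and -0.56 with normexp and loess (adjusted p = 0.356 and 0.323). *Dnajb11* (ERdj3, a J-protein that hands substrates to BiP; chr16:22787328-22787387) had 0.35, 0.47, 0.25 and 0.11 and -0.41, -0.45, -0.37 and -0.46, a smaller difference of -0.72 ± 0.079 (adjusted p = 0.0126) with no overlap. *Sdf2l1*, a partner of *Dnajb11*, did not pass at -0.81 ± 0.18 (adjusted p = 0.0687), nor did *Dnajb9* (ERdj4) at -0.78 ± 0.35 (0.29) or *Dnajc3* (P58IPK) at -0.30 ± 0.14 (0.32).

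The oxidoreductases split. *Pdia4* (ERp72; chr6:47726103-47726162) had log2 ratios of 1.66, 1.68, 1.29 and 0.89 on slide 1 and -1.20, -1.53, -1.42 and -1.45 on slide 2, so that every slide 1 mouse was above the pool and every slide 2 mouse more than 2-fold below it. Its difference was -2.78 ± 0.19 (SE; limma adjusted p = 0.00516), 6.88-fold. *Pdia3* (ERp57, the partner of calnexin and calreticulin; chr2:121129247-121129307) had 0.93, 1.03, 0.83 and 1.19 and -0.70, -0.24, 0.089 and -0.021, without overlap, a difference of -1.21 ± 0.18 (adjusted p = 0.0264) that did not pass under the other scalings (adjusted p = 0.188 and 0.215) or without replicate 1, 2, 3, 4 or 6. *Pdia6* (P5; chr12:17309637-17309696) had 0.46, 0.83, 0.41 and 0.33 and -0.22, -0.11, 0.00060 and -0.37, also without overlap, a difference of -0.69 ± 0.13 (adjusted p = 0.0478) that passed in no fit with a mouse left out and under neither other scaling. By contrast *P4hb* differed by 0.032 ± 0.096 (adjusted p = 0.914), and the oxidases that recharge the isomerases, *Ero1l* and *Ero1lb*, by 0.093 ± 0.17 (0.819) and -0.072 ± 0.12 (0.793). *P4hb* was above the pool in every mouse of both slides.

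In ERAD the 2 members of the retrotranslocation ligase passed. *Syvn1* (HRD1, its ubiquitin ligase; chr19:6053568-6053627) had log2 ratios of 0.53, 0.69, 0.17 and 0.97 on slide 1 and -0.52, -0.66, -0.88 and -0.76 on slide 2, all above and all below the pool, a difference of -1.30 ± 0.18 (SE; limma adjusted p = 0.0199). *Sel1l*, its adaptor (chr12:92212080-92212139), had 0.40, 0.29, 0.77 and 0.29 and -0.49, -0.50, -0.70 and -1.01, likewise on opposite sides of 0, a difference of -1.11 ± 0.16 (adjusted p = 0.0239). Without replicate 2 or 7 neither passed (adjusted p up to 0.0693), and *Sel1l* also did not without replicate 1 or 4. *Herpud1*, *Edem1*, *Derl1*, *Derl2* and *Derl3* had differences from -0.65 (*Herpud1*) to -0.35 (*Derl1*) that did not pass. *Edem2* had 0.47 ± 0.15 (adjusted p = 0.145). Of the 2 COPII genes, *Sec24d*, the cargo-selecting subunit (chr3:123357210-123357269), had 0.54, 0.58, 0.47 and 0.46 and -0.44, -0.13, -0.40 and -0.69. Its slides lay on opposite sides of 0 and differed by -0.93 ± 0.12 (adjusted p = 0.0163; 0.0821 with median-centered signals and 0.0573 without replicate 2), while *Sec23b* differed by -0.17 ± 0.10 (0.453).

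Among the stress sensors and the entry and glycosylation machinery, 0 members passed the slide test with the deposited log ratio. None of *Xbp1*, *Atf6*, *Ern1* and *Eif2ak3* passed the slide test by limma, with differences from -0.37 (*Eif2ak3*) to 0.094 (*Atf6*) and slides that overlapped. With median-centered signals *Eif2ak3* passed at -1.41 (adjusted p = 0.046), and with normexp and loess it did not, at -0.69 (0.124). The SD within a slide ran up to 0.56 (*Xbp1*, slide 2). The array does not separate spliced from unspliced *Xbp1*. Of the translocation genes, *Ssr1* of the translocon-associated complex had -0.57 ± 0.14 (adjusted p = 0.0835; -1.08 and 0.0388 with normexp and loess), the channel's alpha subunit *Sec61a1* -0.33 ± 0.11 (0.152) and *Sec61b* 0.28 ± 0.16 (0.388). The 5 oligosaccharyltransferase subunits had differences from -0.47 (*Rpn1*) through *Stt3a* (-0.33), *Dad1* (0.15) and *Rpn2* (0.30) to 0.49 (*Ddost*), and 0 of 5 passed. No test compared one role with another.

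The red channel carried the difference. For all 14 members the red processed signals of the slides did not overlap, every slide 2 mouse being lower, which held for 5.96% of all genes, and since the ratio that selected the 14 holds the red signal, this count is a description. Their mean log2 red signal fell from slide 1 to slide 2 by 0.50 to 3.12. The green signals, which measure the same pool on each array, overlapped between slides for all 14, and their mean log2 moved by -0.34 to 0.29. For *Creld2* the red signal was 133351 to 252824 on slide 1 and 24138 to 32021 on slide 2, and the green 58900.1 to 67822 and 56739 to 81625. *Pdia4* had a red signal of 6765 to 12108 and then 865 to 1295, against 3540.0 to 3769 and 2358 to 3745 in green. *P4hb* had overlapping red signals of 60266 to 83661 and 56927 to 91255.

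**Figure D3:**
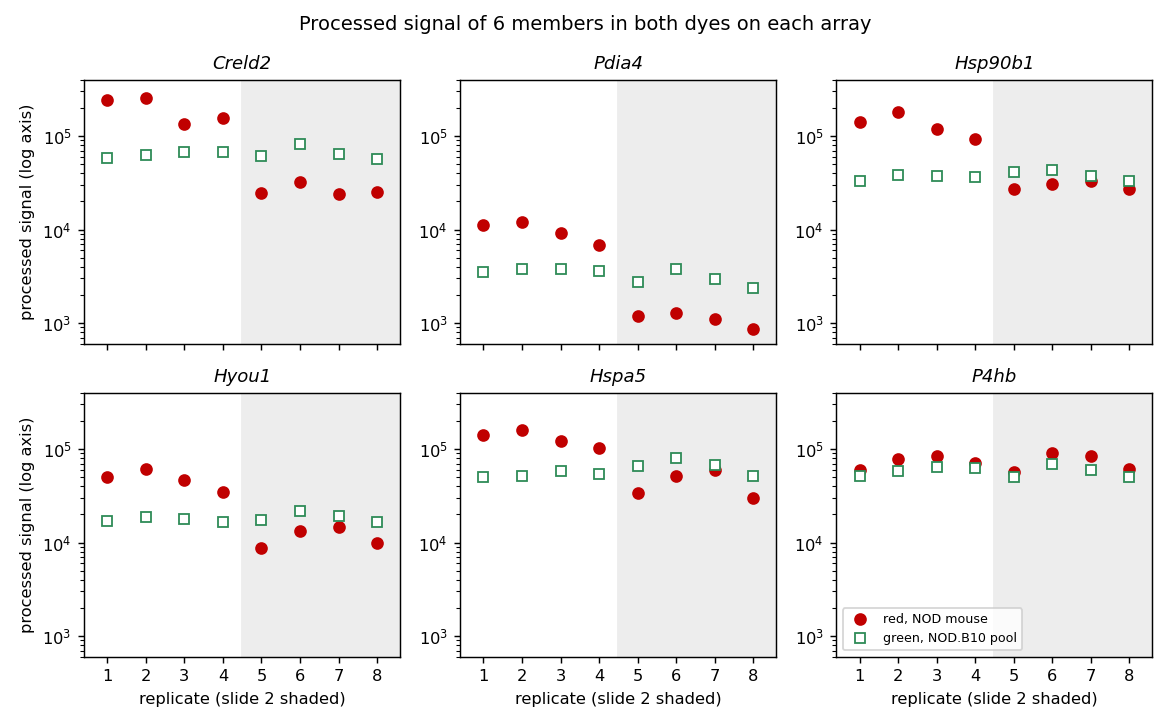
Processed signal (log axis) of 6 members on each of the 8 arrays (x axis, slide 2 shaded), with red circles for the NOD mouse and green squares for the NOD.B10 pool. The red points of *Creld2*, *Pdia4*, *Hsp90b1*, *Hyou1* and *Hspa5* do not overlap between slides while the green points do, and for *P4hb* both colors overlap.

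The slide difference was recomputed from background-subtracted signals with 2 other scalings. Of the 14 members, 8 passed in the same direction with median-centered signals and 9 with normexp and loess. *Hsp90b1*, *Hyou1*, *Calr*, *Creld2*, *Dnajb11*, *Pdia4*, *Sel1l* and *Syvn1* passed under both. For 6 of these the difference was larger under both than with the deposited log ratio. *Creld2* had -4.10 with median-centered signals and -4.26 with normexp and loess. *Dnajb11* had -1.89 with median-centered signals and -1.83 with normexp and loess, and *Hsp90b1* had -2.47 with median-centered signals and -2.59 with normexp and loess. For *Calr* the values were -2.34 with median-centered signals and -2.07 with normexp and loess, for *Sel1l* -2.34 with median-centered signals and -1.92 with normexp and loess and for *Syvn1* -2.15 with median-centered signals and -2.26 with normexp and loess. Of the other 2, *Hyou1* had a smaller difference under both, -1.46 with median-centered signals and -1.51 with normexp and loess, and *Pdia4* had -4.03 with median-centered signals and -2.29 with normexp and loess. *Derl2*, *Derl3* and *Eif2ak3*, not among the 14, also passed with median-centered signals, and *Derl2*, *Derl3*, *Sdf2l1* and *Ssr1* with normexp and loess, which brought the counts to 11 and 13. The shares of all genes that passed under these scalings were not counted, so these counts have no reference. Leaving out irregular spots kept all 14, and leaving out single mice left 8 (without replicate 2) to 13.

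**Figure D4:**
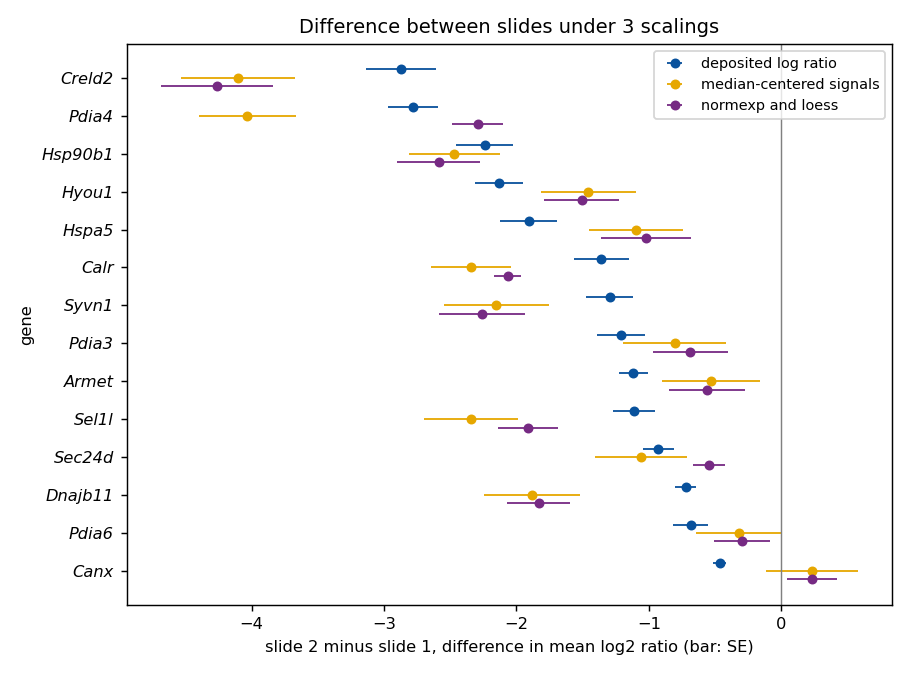
Difference between slides in mean log2 ratio (x axis, slide 2 minus slide 1, bars of 1 SE) for the 14 members that passed with the deposited log ratio (y axis), under the deposited log ratio, median-centered signals, and normexp with loess. All estimates lie below 0 but those of *Canx* under the 2 alternatives (0.23 and 0.23).

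Other probes of the same genes gave a further reading. The 39 members had 37 further probes, all tested, of which 30 were lower on slide 2 and 4 passed the test (limma adjusted p under 0.05). Over all genes, 45.4% of such further probes were lower on slide 2 and 1.08% passed in that direction. Red signal was well above background on all 8 arrays for 21 of the 37, of which 17 were lower on slide 2 and 2 passed. For 7 of the 14 members there were 11 further probes, of which 5 had such red signal, and 5 of these were lower on slide 2 and 1 passed. This was the second probe of *Hsp90b1*, with 1.43 on slide 1 and -0.65 on slide 2 (adjusted p = 0.0124), while a dimmer probe of *Pdia6*, with 1.45 and -0.42 (0.0237), passed with red signal well above background on 4 arrays only. A further probe passed for *Dnajc3* at -0.92 (0.0419) and for *Stt3a* at -1.19 (0.0267; red well above background on 4 arrays), both members whose brightest probe did not. Probes of one gene share its mice and are no replicates. For the means over all 8 mice, the second probes of *Canx* (0.19 and -0.17) and *Derl2* (-0.063) did not pass, nor did those of *Rpn2* (-0.34, adjusted p = 0.0813) and *Sec23b* (0.10, 0.0567), and the second probe of *Edem2* (0.56) had no red signal well above background. A further probe did pass for *Edem1* at -0.35 (adjusted p = 0.00485), and 2 passed for *Derl1* in opposite directions, at -0.60 (0.0293) and 0.17 (0.0197), where the brightest probes of both genes did not.

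A list of 67 other genes of folding, translocation, glycosylation, ERAD, ER-to-Golgi transport and the unfolded protein response, of which 65 were tested, gives the rest of the pathway. Over all 8 mice 6 (9.23%) were higher and 12 (18.5%) lower by limma at an adjusted p under 0.05, beside 7.01% and 14.4% of all genes. *Sec23a*, a COPII coat subunit, was the only one called at 2-fold, at -1.06 ± 0.58 (SD, n = 8; adjusted p = 0.00994), with red signal well above background on 0 arrays. Highest were *Ddit3* (CHOP, a transcription factor of prolonged ER stress) at 0.64 ± 0.30 (adjusted p = 0.00592), *Stt3b* of the oligosaccharyltransferase at 0.47 ± 0.34 (0.0301), the signal recognition subunit *Srp54* at 0.44 ± 0.24 (0.0103) and the cargo receptor *Tmed2* at 0.26 ± 0.13 (0.0083). Lowest beside *Sec23a* were *Mbtps2*, a protease that activates ATF6, at -0.94 ± 0.46 (0.00665), the signal peptidase subunit *Spcs2* at -0.81 ± 0.13 (2.33e-04), the cargo receptor *Lman1* at -0.73 ± 0.25 (0.00211) and *Tmed10* at -0.55 ± 0.15 (0.00103). Of these, *Mbtps2* turned to 0.39 with median-centered signals and *Tmed10* to 0.20 with normexp and loess.

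Between the slides, 9 of the 65 (13.8%) were lower on slide 2 and 3 (4.62%) higher, and 19 (29.2%) had every slide 2 mouse under every slide 1 mouse, beside 1.86%, 2.01% and 6.97% of all genes. The median difference was -0.096, against -0.47 over the members and 0 over all genes tested. Named after their values were seen, *Ube2j1*, an ERAD ubiquitin-conjugating enzyme, differed by -0.83 ± 0.11 (SE; limma adjusted p = 0.0183), the cargo receptor *Surf4* by -0.80 ± 0.12 (0.0267) and *Atf4*, the effector of *Eif2ak3*, by -0.70 ± 0.092 (0.0185). The 3 higher ones, *Fkbp2* (0.54), *Ssr4* (0.39) and *Spcs1* (0.54), turned negative under both other scalings. *Erp29*, among the 9 lower, turned positive under both.

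**Figure D5:**
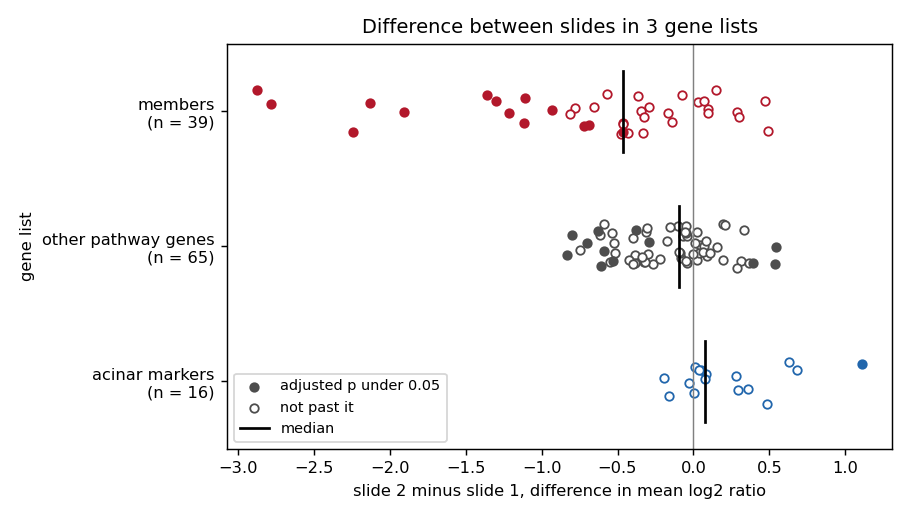
Difference between slides in mean log2 ratio (x axis) for the 39 members, 65 other pathway genes and 16 acinar markers (y axis), with 1 point per gene, filled where the adjusted p is under 0.05, and a bar at each list's median. The members reach -2.87, other pathway genes reach -0.83, and with the deposited log ratio used here the single filled acinar point is *Ela2* at 1.11.

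Markers of the cell types in the tissue were read beside this difference, and their part in it was not tested. Of 16 acinar genes, 0 passed as lower on slide 2 and 1, the elastase *Ela2*, was higher by 1.11 ± 0.093 (SE; limma adjusted p = 0.00849), with a list median of 0.079. The difference of *Ela2* was -0.058 with median-centered signals and -0.036 with normexp and loess (adjusted p = 0.928 and 0.976). Their summed red signal was 3326430 to 4089030 on slide 1 and 3704520 to 5933980 on slide 2. Plasma cells were read on 7 markers, of which *Tnfrsf17*, *Prdm1* and *Irf4* had no red signal well above background on any array. The 7 summed to 2527 to 6995 on slide 1 and 2266 to 7781 on slide 2, and 0 of the 4 tested passed the slide test. Of 11 leukocyte markers, 6 were higher in NOD mice over all 8 arrays and 0 passed the slide test, with summed red signals of 8018 to 15569 and 5326 to 23849, of which *Cd3e* gave 5929 to 9995 and 3637 to 15423. The 9 beta cell markers summed to 45441 to 175060.0 and 162660.0 to 291279, the 5 duct markers to 28171 to 31709.5 and 15348 to 30785 and 6 liver markers to 728 to 1014 and 644 to 1811. In these 3 lists 0 genes passed the slide test. Over all 8 mice, 3 acinar markers were higher and 1 lower, and in the beta cell, duct and liver lists 2 of 8, 1 of 5 and 5 of 6 tested genes were lower and 0 higher, with *Ahsg* (-3.21 ± 0.97), *Fgb* (-3.05 ± 0.93, red well above background on 0 arrays) and *Alb* (-2.31 ± 0.60) of the liver list lowest. The lower beta cell genes *Slc30a8* and *Pdx1* had red signal well above background on 0 arrays and 1 array, and the lower duct gene *Cftr* on 0. *Apoa1* and *Apoc3* of the liver list also had it on 0 arrays. Single genes set the beta cell and duct sums. *Ins2* had a red signal of 37500.5 to 144891 on slide 1 and 138692 to 245328 on slide 2, and *Spp1* 25063 to 28898 and 12899.6 to 27259.8. Other genes of these lists had differences of the opposite sign, such as *Pdx1* at -0.62 and *Krt19* at 0.66, and the beta cell list had a median difference of 0.055. With median-centered signals *Pdx1* had -1.21 and *Krt19* -0.64, and with normexp and loess they had 0.010 and -0.21.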

How the data were processed

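Each of the 8 NOD mice had its own two-color array against the 1 NOD.B10 pool. Feature Extraction (Agilent, version 10.7.3.1) was run by the authors on a design whose probes are placed on mm8, and the deposited files hold, per spot, a log10 ratio of red over green and processed intensity values after background subtraction and dye normalization. From these, log10 ratios were converted to log2 and spots of a probe averaged. The 28105 probes with a symbol and a red signal of at least 25 in at least 4 arrays entered limma (version 3.58.1) under R 4.3.3, as a moderated one-sample test against 0 and as slide 2 against slide 1, with Benjamini-Hochberg adjustment over all of them. The code was tested on simulated data. Full values are given for members past an adjusted p of 0.05 with at least 1.5-fold and for those that differed by slide. Of other pathway genes, those called and the 4 highest and 4 lowest past that threshold are named. The members, lists and tests were chosen with earlier results of these data known. Alternatives were the plain statistic, other filters, median-centered background-subtracted signals, normexp (offset 50) with loess, slide as covariate, saturated or irregular spots left out, and each mouse left out. Those of the slide comparison, other than the scalings, and the tests within each slide were added after the data were seen. The labels name separate mice as samples. Tables (pandas 2.3.3, numpy 2.4.6) and plots (matplotlib 3.10.9) were made in Python 3.11.15. The number of arrays limits the precision.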

Additional observations from a re-analysis of the deposited data

Results flagged for a closer look

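The log2 ratio of *Sec61b* in replicate 8 was 0.23, while the other 7 mice lay between -0.65 and -0.33. Its gap to the nearest other mouse, divided by the range of the 8, was 0.632, past Dixon's 95% critical value. Chance alone takes about 1 in 20 groups past that value, and all 39 members were looked at.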

How the results depend on the processing

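No paired analysis was possible because the NOD mice form 1 group and the pool has no replicates. The cause of the changes below was not tested. Shares of all genes were counted for the main tests and within each slide only, so the other counts here have no such reference. Called at 2-fold, 1 member was higher with normexp and loess, 1 at a fold of 1.5, 0 to 1 with a mouse left out (1 without replicate 7), and 1 lower with median-centered signals, against 0 each. Past an adjusted p of 0.05, the higher count of 4 became 7 with normexp and loess, 10 with slide as covariate, 19 on slide 1 and 2 on slide 2. The lower count of 5 became 3 with the plain statistic, 3 with normexp and loess and 10 on slide 2, and 2 to 4 with a mouse left out. The slide count of 14 became 8 to 13 with a mouse left out (8 without replicate 2), and 11 to 16 under the other alternatives. The lower pathway count of 12 became 7 with normexp and loess. The median over members of -0.0035 turned to 0.093 with normexp and loess, 0.0041 over all probes, 0.033 as the median over mice and 0.31 on slide 1, and ran from -0.065 to 0.15 with a mouse left out. Single means changed sign with median-centered signals for *Sdf2l1* (-0.080), *Creld2* (-0.42), *Edem1* (0.078), *Derl3* (-0.21), *Atf6* (0.27), *Ssr1* (-0.13), *Stt3a* (0.30), *Dad1* (0.040) and *Sec24d* (-0.040), and with normexp and loess for *Ero1lb* (0.035), *Syvn1* (0.054), *Edem1* (0.27), *Atf6* (0.13), *Sec61a1* (0.093), *Sec61b* (0.45), *Ssr1* (-0.087), *Stt3a* (0.15), *Dad1* (0.16) and *Sec24d* (-0.025). Of these, *Sec61b* alone had passed the test without a slide term, while *Derl3* and *Ssr1* had passed with slide as covariate. The slide difference of *Canx* turned to 0.23 and 0.23. Leaving out saturated spots changed no member, as none had one.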

Other observations

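Named after their values were seen, *Xbp1*, *Eif2ak3* and *Stt3a* had the same mice at both ends of their range. *Xbp1* had log2 ratios of -0.57, -0.081, 0.52 and -0.17 in replicates 1 to 4 and -0.22, 0.41, -0.11 and -0.94 in replicates 5 to 8. The values of *Eif2ak3* were 0.17, -0.41, 0.89 and -0.062 and -0.26, 0.41, -0.25 and -0.77. *Stt3a* had 0.16, -0.24, 0.61 and -0.017 and -0.27, 0.13, -0.18 and -0.48. In all 3 genes replicate 3 was highest and replicate 8 lowest. Replicate 6 was the highest mouse of slide 2 in each. They were not alone, as *Calr* also had replicate 3 highest (0.84), replicate 8 lowest (-1.10) and replicate 6 highest of slide 2 (-0.28). *Sel1l* also had replicate 3 highest (0.77) and replicate 8 lowest (-1.01).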
